A study of Rattus norvegicus with 31 samples.

Results

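The genes described here are 10 genes of T cells and cytotoxic lymphocytes measured in the left ventricle of the rat heart. They are Cd3e, Cd3d, Cd3g, Cd4, Cd8a, Cd8b, Gzmb, Prf1, Nkg7 and Ptprc, chosen by symbol. All 10 were found among the 19100 genes of the RefSeq table, and 9 of the 10 among the 46063 genes that the authors assembled from their own reads. An assembled gene was taken when it carried the symbol as its single name in the deposited rn7 annotation and had the highest mean, and no assembled gene was named Cd4. Total RNA depleted of ribosomal RNA was sequenced from naive, untreated male rats, whose ages the labels do not give. The progenitor strains were BN-Lx (BN-Lx/Cub), a normotensive congenic of the Brown Norway rat, and SHR (SHR/OlaIpcv), which develops hypertension spontaneously, with 4 animals each in sequencing batch 1. The recombinant inbred strains, each a fixed mosaic of both progenitor genomes, were 12 HXB and 9 BXH strains from reciprocal crosses, with 1 library per strain in batch 2 (6 libraries) or batch 3 (15 libraries). With 1 library per strain, the animal and the strain cannot be told apart within the panel.

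T cells recognise antigen through a receptor whose signal enters the cell by the CD3 chains, encoded by Cd3e, Cd3d and Cd3g. CD4 and the CD8 dimer of Cd8a and Cd8b are co-receptors that mark helper and cytotoxic T cells, and in the rat CD4 is also found on monocytes and macrophages. Cytotoxic T cells and natural killer cells kill by releasing perforin (Prf1), which forms pores, and granzymes such as granzyme B (Gzmb), serine proteases, from granules whose membrane carries NKG7. Ptprc encodes CD45, a tyrosine phosphatase on the surface of nearly all white blood cells. In a healthy heart these cells are few among cardiomyocytes, fibroblasts and endothelial cells. In a bulk sample, fewer cells of a type and less RNA per cell cannot be told apart.

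All values are the authors' log2 expression levels. They are not divided by gene length, so levels are compared between groups and not between genes. Each library's depth is unknown, since no counts were given. Spike-in RNAs added to the samples were at a mean of 6.95 to 7.85 in the BN-Lx libraries and 6.37 to 6.82 in the SHR libraries (log2), so these ranges did not overlap. A later library of SHR replicate 4 was deposited beside that of batch 1. It differed from that library by -1.20 for Cd3e, -1.28 for Cd3g, -1.41 for Cd8b and -0.65 for Cd8a. The median of the signed differences over all genes was 0.12. Gaps of opposite sign cancel in that median, so it does not give the typical size of a gap. For the other assembled genes chosen here the same animal's libraries differed by between -0.37 and 0.32. For Cd3e, Cd3g and Cd8b this gap between libraries of 1 animal was wider than the difference between SHR and BN-Lx given further on. In the RefSeq table, later libraries of this animal differed in size by 0.36 for Gzmb, 0.29 for Cd8a, 0.21 for Cd3e and 0.18 for Prf1. For the other members this gap was at most 0.13, and its median over all genes was 0.09. For Cd8a and Cd3e it was wider than the difference between HXB and BXH given further on.

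Granzyme sequences are shown first, because the clearest difference between SHR and BN-Lx fell on them and because the name Gzmb covered more than 1 gene. The annotation of assembled genes held 4 genes named Gzmb, of which 2 were measured. The first lay at chr15:30321653-30324360 on the minus strand (PRN7.71G0203820) and the second at chr15:30343361-30346847 on the same strand (PRN7.71G0203823), both in rn7 and 19.0 kb apart. The first lay between LOC120097248 and LOC120097244, where RefSeq places Gzmc, which encodes granzyme C, and the second between LOC120097244 and Atp12a, where RefSeq places Gzmb. Windows of 250 bases before to 50 after the start of Gzmb and Gzmc follow as RefSeq gives them for GRCr8, with those of Prf1 and Nkg7, the members whose levels varied together most closely across strains. Capitals mark GGAA (core of ETS sites), TGTGGT (core of RUNX sites) and TGACGT (core of CRE sites) on either strand.
Gzmb (chr15:34462420-34462719, minus strand): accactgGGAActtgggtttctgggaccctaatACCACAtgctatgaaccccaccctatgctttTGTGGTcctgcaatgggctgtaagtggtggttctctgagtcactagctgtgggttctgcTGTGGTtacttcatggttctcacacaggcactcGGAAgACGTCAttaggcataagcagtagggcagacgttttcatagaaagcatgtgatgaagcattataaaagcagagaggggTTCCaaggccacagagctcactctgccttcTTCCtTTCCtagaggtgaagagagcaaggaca
Gzmc (chr15:34439957-34440256, minus strand): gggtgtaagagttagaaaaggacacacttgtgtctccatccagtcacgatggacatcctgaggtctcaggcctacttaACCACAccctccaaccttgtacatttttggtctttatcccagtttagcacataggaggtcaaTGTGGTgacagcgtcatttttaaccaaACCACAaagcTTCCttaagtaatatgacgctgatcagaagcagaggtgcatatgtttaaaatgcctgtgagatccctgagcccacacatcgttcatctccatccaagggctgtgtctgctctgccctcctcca
Prf1 (chr20:29788790-29789089, plus strand): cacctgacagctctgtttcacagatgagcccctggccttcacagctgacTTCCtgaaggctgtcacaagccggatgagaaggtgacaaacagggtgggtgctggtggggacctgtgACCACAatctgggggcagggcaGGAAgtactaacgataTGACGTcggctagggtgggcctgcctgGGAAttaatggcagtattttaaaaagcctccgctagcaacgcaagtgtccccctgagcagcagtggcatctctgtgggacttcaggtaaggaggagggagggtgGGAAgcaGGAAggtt
Nkg7 (chr1:102981247-102981546, plus strand): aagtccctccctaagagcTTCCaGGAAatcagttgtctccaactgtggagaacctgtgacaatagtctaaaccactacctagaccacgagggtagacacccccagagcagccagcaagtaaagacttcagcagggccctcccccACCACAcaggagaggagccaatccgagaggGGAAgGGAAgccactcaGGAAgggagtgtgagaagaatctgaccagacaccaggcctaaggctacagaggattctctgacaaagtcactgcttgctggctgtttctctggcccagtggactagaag

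Windows were found for 8 of the 10 members. TGTGGT, which 16.9% of the 27457 windows of this length held, occurred 3 times in Gzmb, 3 times in Gzmc, 1 time in Prf1 and 1 time in Nkg7, and in none of the other 5 member windows. TGACGT, held by 8.22% of all windows, occurred 1 time in each of Gzmb, Prf1 and Cd3e. GGAA occurred in every member window, as it did in 95.8% of all windows. No match overlapped a match of another motif in these windows. A match is a match of letters and was not tested for binding.

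Between the progenitor strains, the question was which of these genes differ in the heart. Both assembled genes named Gzmb were lower in SHR, Cd8a was higher, and the other 7 members with an assembled gene were not called. Among the 9 members 2 were therefore called by limma at an adjusted p under 0.05, 1 in each direction. Over all 46063 assembled genes 14.3% were called (7.38% higher and 6.95% lower in SHR), and over the 12911 genes that represent a single symbol 20.5% were called. The count of members is close to this background. Their median difference was -0.17, against 0.01 over all genes.

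The first Gzmb gene was at 6.85, 7.03, 7.16 and 7.22 in BN-Lx and at 5.93, 5.84, 5.87 and 5.79 in SHR. All 4 SHR animals lay below all 4 BN-Lx animals, with a gap wider than the range of either strain. It fell by 1.21 ± 0.14 (SE, log2) in SHR, with an adjusted p of 0.000102 by limma. The second Gzmb gene was at 5.38, 5.46, 5.68 and 5.92 in BN-Lx and at 4.33, 4.58, 3.82 and 4.04 in SHR. The strains did not overlap here either, and the difference was -1.42 ± 0.23 with an adjusted p of 0.00149. Ranges that do not overlap between the strains were found for 20.6% of all assembled genes. With the spike-in level as a covariate the first gene kept its call (adjusted p 0.0204) and the second was at -1.47 with an adjusted p of 0.0607. In the later library of SHR replicate 4 the first gene was at 6.11 and the second at 3.99, so both stayed below every BN-Lx library, although across batches.

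The co-receptor gene Cd8a (PRN7.71G0080792, chr4:103365804-103370181) was at 4.19, 4.32, 4.28 and 4.51 in BN-Lx and at 4.71, 5.13, 5.18 and 5.57 in SHR. Its ranges did not overlap, and it rose by 0.83 ± 0.23 (adjusted p 0.0322 by limma). The call was lost when 1 of 6 of the 8 animals was left out, namely any of replicates 1 to 3 of BN-Lx, or any of replicates 2 to 4 of SHR (differences of 0.68 to 0.83, adjusted p 0.0574 to 0.108). It was also lost with the spike-in level as a covariate (0.95, adjusted p 0.194) and in a fit of all groups (adjusted p 0.0587). The later library of SHR replicate 4 was at 4.93. Cd8b (PRN7.71G0080787, chr4:103312596-103328523), the other chain of the dimer, was at 2.39, 1.33, 2.17 and 1.40 in BN-Lx and at 2.52, 2.45, 2.34 and 3.36 in SHR. Most of its SHR values lay above the BN-Lx range, but the difference of 0.85 ± 0.37 was not called (adjusted p 0.155), and SHR replicate 4, its highest animal, was at 1.95 when sequenced again.

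The CD3 genes are neighbours on chromosome 8, Cd3g at chr8:45280797-45287271, Cd3d at chr8:45287803-45293342 and Cd3e at chr8:45303848-45315297. Cd3e was at 4.12, 3.87, 2.92 and 3.86 in BN-Lx and at 3.15, 3.09, 2.58 and 3.98 in SHR, with overlapping ranges and a difference of -0.49 ± 0.37 (adjusted p 0.412). Cd3d was at 3.18, 3.77, 2.70 and 3.16 in BN-Lx and at 1.901, 2.68, 2.88 and 2.57 in SHR, again overlapping, with a difference of -0.69 ± 0.34 (adjusted p 0.204). Cd3g ranged from 2.40 to 4.38 in BN-Lx and from 2.55 to 3.39 in SHR, with a difference of -0.38 ± 0.41 (adjusted p 0.574). The fitted differences of all 3 CD3 genes were negative and those of both CD8 genes positive, and of these 5 only Cd8a was called.

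Perforin (Prf1, chr20:29246124-29252286) ranged from 5.72 to 6.47 in BN-Lx and from 6.02 to 6.77 in SHR, with a difference of 0.41 ± 0.22 (adjusted p 0.243). Nkg7 (chr1:93844748-93845975) ranged from 5.72 to 6.27 in BN-Lx and from 5.63 to 6.36 in SHR, so that the SHR range enclosed that of BN-Lx, and its difference was -0.17 ± 0.20 (adjusted p 0.612). Ptprc (chr13:49596193-49708283) was at 9.49, 9.68, 9.21 and 9.32 in BN-Lx and at 9.36, 9.45, 9.05 and 9.59 in SHR, with a difference of -0.07 ± 0.13 (adjusted p 0.783). A second measured gene named Ptprc (PRN7.71G0185914) had low values, from 0.25 to 1.04 in BN-Lx and from 0.62 to 1.66 in SHR. Its difference was 0.57 ± 0.355 (adjusted p 0.318 by limma). Across the strains its rho with RefSeq Ptprc was 0.23. The other cytotoxic members thus did not pass the test in the direction of the granzyme genes, and the difference between the granzyme and perforin effects was not tested.

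**Figure D1:**
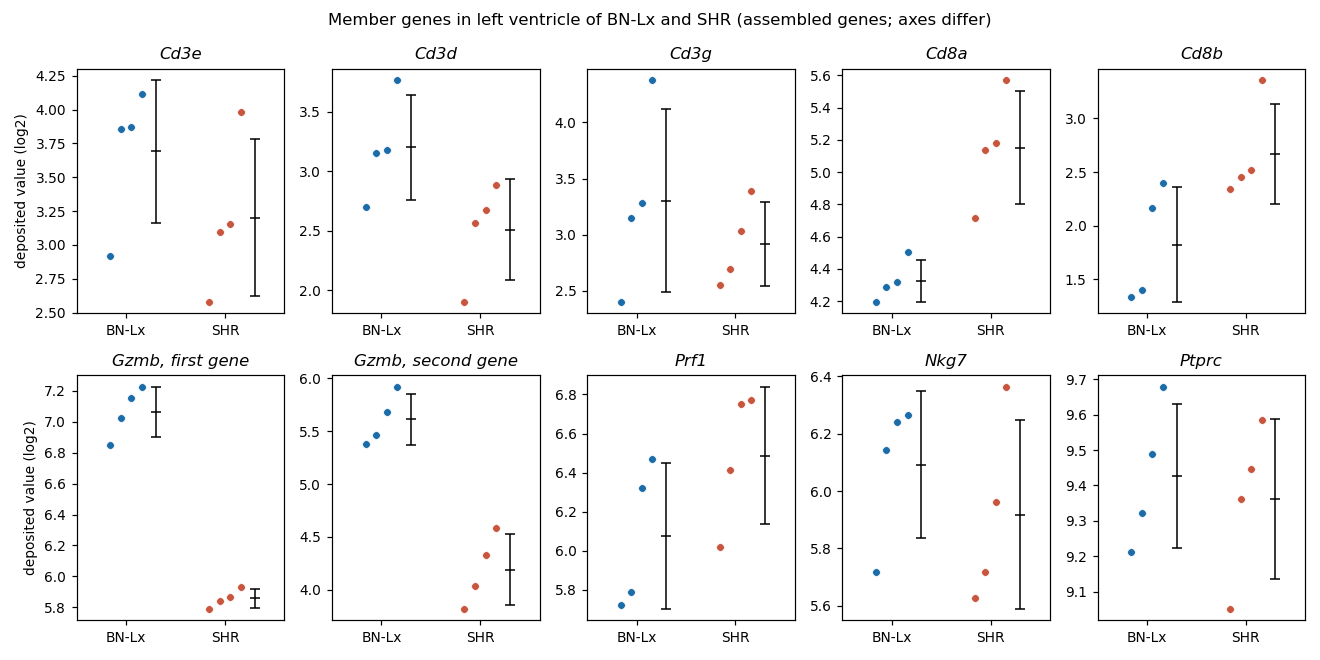
Deposited log2 values of 8 members and of both assembled Gzmb genes in 4 BN-Lx and 4 SHR animals, 1 point per animal, with the mean and SD beside each group (the axes differ between panels). SHR lies below BN-Lx with no overlap for both Gzmb genes and above it with no overlap for Cd8a, while the ranges of the other genes overlap.

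The levels of both assembled Gzmb genes across the 21 recombinant strains separated the identities further. The first gene followed RefSeq Gzmc with a Spearman rho of 0.96 and RefSeq Gzmb with a rho of 0.41, for which 2157 other RefSeq genes ranked higher. The second followed RefSeq Gzmb with a rho of 0.91, the highest of all RefSeq genes, and RefSeq Gzmc with a rho of 0.55. These correlations describe 21 libraries that enter both tables, centred within batch. For the other 8 members with an assembled gene, the gene chosen was most like its own RefSeq gene, with a rho of 0.93 to 0.98. By position and by likeness, then, the value that the symbol rule gives for Gzmb belongs with Gzmc, and the second gene with Gzmb. Reads from such related genes can be split between them by the counting, which was not tested.

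**Figure D2:**
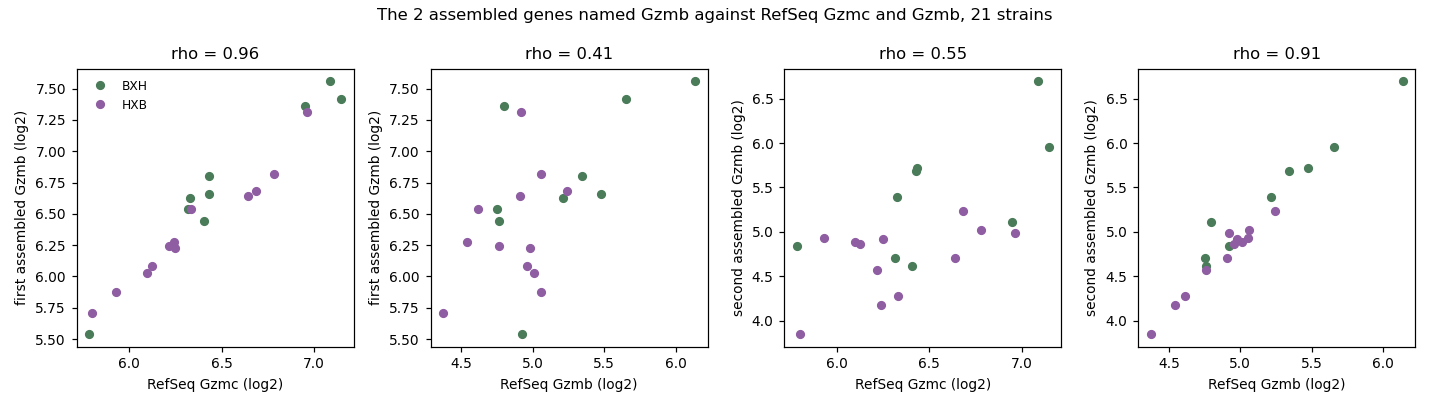
Log2 values of the first and second assembled gene named Gzmb (vertical axes) against RefSeq Gzmc and RefSeq Gzmb (horizontal axes), 1 point per recombinant inbred strain, as deposited and not centred. The rho in each title is centred within batch: the first gene lies along Gzmc (0.96), the second along Gzmb (0.91).

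In the assembled table the first gene ran from 5.54 in BXH5 over a median of 6.54 to 7.56 in BXH9, and the second from 3.85 in HXB29 over a median of 4.92 to 6.70 in BXH9. For each of these genes 15 of 21 strains lay between the means of the progenitors, 2 below the SHR mean and 4 above the BN-Lx mean, although the panel was sequenced in other batches than the progenitors. In the RefSeq table, mixtures with equal variances gave only Cd3g of the 10 members more than 1 component by BIC, 2 components with a gain of 0.39, against 15.6% of all 19100 genes with more than 1. With unequal variances Gzmb had 3 components (gain 3.4) and Cd3g 2 (gain 0.09), so the number for Gzmb depended on this setting.

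The comparison of HXB with BXH asked whether the members differ between the reciprocal families. Nkg7, Prf1 and Cd4 were lower in HXB, and no member was called higher. Thus 3 of 10 members were called by limma with batch as a covariate, while 36.3% of all 19100 RefSeq genes were called (18.5% higher and 17.8% lower in HXB), so the members were called no more often than genes in general. The median difference of the members was -0.21, against -0.01 over all genes.

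Nkg7 had its lowest value, median and highest value at 5.81, 6.08 and 6.55 in HXB and at 6.14, 6.58 and 7.09 in BXH. All 12 HXB strains lay below the BXH median, though the ranges overlapped, and Nkg7 fell by 0.49 ± 0.11 (adjusted p 0.00126). Prf1 was at 5.66, 5.998 and 6.31 in HXB and at 6.07, 6.40 and 6.94 in BXH. Again all 12 HXB strains were below the BXH median, with a fall by 0.41 ± 0.10 (adjusted p 0.00381). Cd4 was at 9.88, 10.18 and 10.63 in HXB and at 10.17, 10.44 and 10.70 in BXH. It fell by 0.26 ± 0.07 (adjusted p 0.00895), with 11 of 12 HXB strains below the BXH median. Within batch 3 alone the differences of Nkg7 and Prf1 were -0.53 and -0.50, and both stayed called. The difference of Cd4 there was -0.24 (adjusted p 0.0616). Within batch 2, with 3 strains a family, the differences of the 3 genes were -0.41, -0.19 and -0.31, and no gene of the table was called, while 1561 had an unadjusted p under 0.05.

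The other members did not pass the threshold. Cd8a was at 4.24, 4.78 and 5.26 in HXB and at 4.89, 5.05 and 5.32 in BXH, with a difference of -0.26 ± 0.10 (adjusted p 0.0513). It was called in batch 3 alone (-0.28, adjusted p 0.0354) and in the assembled table (-0.61, adjusted p 0.0187). It was also called, as a 4th member, without the batch covariate, without the intensity trend, with robust empirical Bayes and after quantile normalization (adjusted p 0.0477, 0.0458, 0.0484 and 0.0378). Gzmb was at 4.37, 4.94 and 5.24 in HXB and at 4.75, 5.21 and 6.14 in BXH, where BXH9 was highest, with a difference of -0.37 ± 0.15 (adjusted p 0.0615). The second assembled Gzmb gene, the one that follows RefSeq Gzmb, had a difference of -0.73 ± 0.23 (adjusted p 0.0211). Gzmc was at 5.80, 6.25 and 6.96 in HXB and at 5.78, 6.43 and 7.15 in BXH, with a difference of -0.22 ± 0.16 (adjusted p 0.312). Ptprc was the member with a positive difference, 0.26 ± 0.12 (adjusted p 0.0941), at 8.17, 8.65 and 9.27 in HXB and 8.26, 8.52 and 8.78 in BXH. In an older table of Ensembl genes, examined after seeing the data, it was called higher in HXB (0.31, adjusted p 0.0443). Cd3e, Cd3d, Cd3g and Cd8b had differences between -0.15 and -0.03, with adjusted p from 0.181 to 0.80. In the assembled table their differences were larger, at -0.43, -0.26, -0.52 and -0.54. None of these 4 was called there either (adjusted p 0.117, 0.423, 0.0678 and 0.14 by limma).

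**Figure D3:**
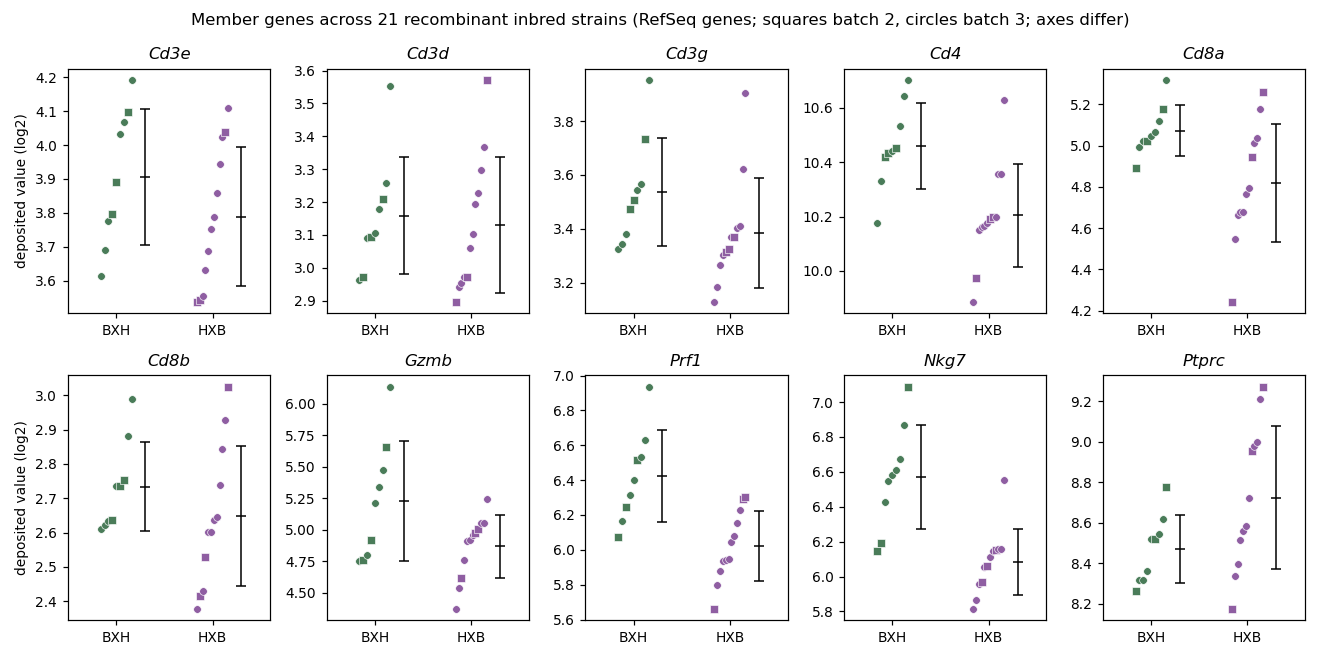
Deposited log2 values of the 10 members in the RefSeq table for 9 BXH and 12 HXB strains, 1 point per strain (squares batch 2, circles batch 3), with the mean and SD beside each family (the axes differ between panels). For Prf1 and Nkg7 all HXB strains lie below the BXH median, while Ptprc reaches higher in HXB (9.27) than in BXH (8.78).

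A library-wide axis moved with the families. The first principal component of all batch-centred RefSeq genes held 33.7% of the variance and ran from -0.34 to 0.13 in HXB and from 0.00 to 0.38 in BXH. Mean spike-in levels ran from 6.63 to 7.01 in HXB and from 6.78 to 7.93 in BXH. Spearman correlations with that component over the 21 libraries were 0.75 for Nkg7, 0.65 for Prf1, 0.63 for Cd4, -0.71 for Ptprc and between 0.07 and 0.43 for the other members. With the spike-in level as a further covariate no gene of 19100 was called by limma (2006 had an unadjusted p under 0.05), and Nkg7, Prf1 and Cd4 were at -0.13, -0.11 and -0.22. With the first component as the covariate, an alternative chosen after seeing the data, the 3 genes were at -0.17, -0.25 and -0.12, again with no call among 19100 genes (1454 at an unadjusted p under 0.05). The part of the axis and of the spike-in level in the family differences was not tested.

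Across the 21 strains, the levels of the members were compared in 45 pairs, to see which varied together. Spearman rho ran from -0.34 to 0.85 with a median of 0.38, and 39 of 45 were positive. Among the 12 HXB strains alone 42 of 45 were positive, with a median of 0.35. Among the 9 BXH strains alone only 19 of 45 were positive, with a median of -0.07, so the mostly positive pattern was not seen there. Over all 21 strains the permutation test, two-sided with Benjamini-Hochberg adjustment over the 45 pairs, called 8 pairs by rho, all positive. Prf1 and Nkg7 were the closest, with r = 0.82 and rho = 0.85 (permutation p = 2e-05 for each, adjusted p 0.0009 for each), and r was 0.80 without the 2 strains farthest from the median of Prf1. Within the families their rho was 0.66 in HXB and 0.72 in BXH, and after the first component was removed it was 0.66.

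Among the receptor genes, Cd3e and Cd3d had r = 0.67 and rho = 0.69 (permutation p = 0.00052 and 0.00061, adjusted p 0.0103 and 0.00915). Cd8b varied with both, with rho = 0.65 with Cd3e and 0.68 with Cd3d (adjusted p 0.0108 for each by permutation). Cd8a and Cd8b, the chains of 1 dimer, had rho = 0.49 (adjusted p 0.109 by permutation) and r = 0.59 (adjusted p 0.0214). Cd8a was called with the cytotoxic gene Prf1 (rho = 0.62, adjusted p 0.0186 by permutation). By rho it was also called with Gzmb (0.66, adjusted p 0.0108), but r = 0.49 had an adjusted p of 0.104. In the assembled table Cd8a was called with Cd8b too (rho = 0.62, adjusted p 0.0148 by permutation). Other genes called with Cd8a there were Cd3e (0.61), Cd3g (0.58), Cd3d (0.55), Prf1 (0.74) and Nkg7 (0.66). In the RefSeq table Cd4 was called with Nkg7 (rho = 0.71, adjusted p 0.00915 by permutation) and Prf1 (rho = 0.68, adjusted p 0.0108). The rho of Cd4 with Nkg7 was 0.64 in HXB, 0.10 in BXH and 0.33 after the first component was removed. The pan-leukocyte gene Ptprc had rho between -0.34 and 0.38 with the other 9 members, and none of these pairs was called (adjusted p 0.171 to 0.821 by permutation). After the first component was removed, an alternative chosen after seeing the data, 3 Ptprc pairs were called, with Cd8a (rho = 0.70), Prf1 (0.69) and Gzmb (0.59), at adjusted p of 0.0117, 0.0117 and 0.0354 by permutation. That setting also called 8 pairs, of which 4 were among the 8 called without it. In all 8 called pairs r kept its sign without the 2 farthest strains, at 0.48 or more. Within HXB or BXH alone no pair was called after adjustment, with 11 and 4 pairs at an unadjusted permutation p under 0.05.

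**Figure D4:**
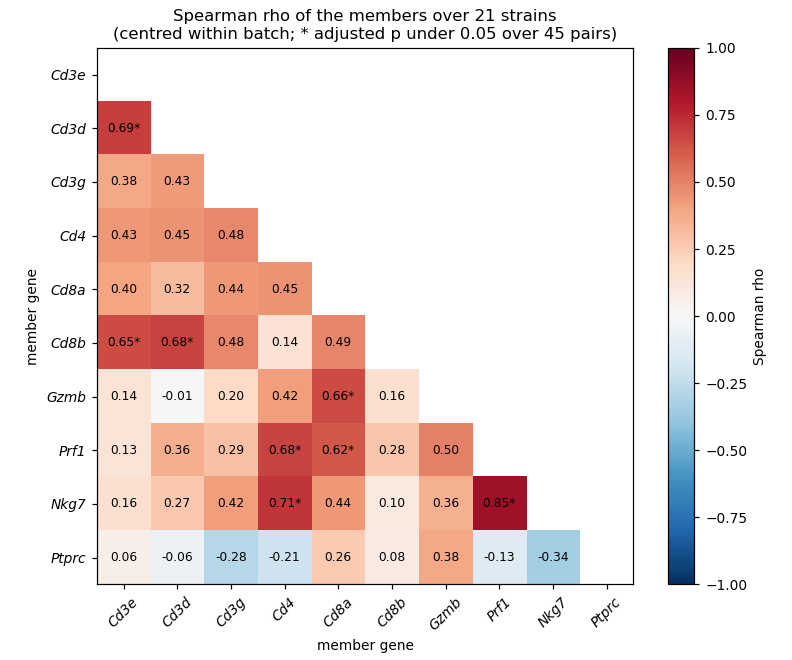
Spearman rho for each of the 45 pairs of members over 21 recombinant inbred strains (RefSeq genes, centred within batch), with the member genes on both axes and colour from -1 (blue) to 1 (red). Stars mark the 8 pairs with an adjusted permutation p under 0.05, which link Prf1 with Nkg7 (0.85), Cd4 with both, Cd8a with Gzmb and Prf1, and Cd3e, Cd3d and Cd8b with each other.

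The RefSeq genes outside the members whose levels were most like those of 4 members were listed as a description, by rho over the 21 batch-centred strains. For Cd3e they were LOC120095311 (0.81), Rgs14 (0.79), Lat (0.78), an adaptor of T cell receptor signalling, Acap1 (0.78) and Glrx (0.76). For Prf1 they were Ccl5 (0.89), a chemokine, Spi1 (0.88), the myeloid transcription factor PU.1, Lck (0.88), the kinase that starts T cell receptor signalling, Ctsz (0.86) and Clec10a (0.85), a lectin of macrophages. For Cd4 they were Pard6a (0.90), Irf8 (0.88), Pla2g15 (0.87), Zfp276 (0.87) and Gm2a (0.86). For Ptprc they were Igsf6 (0.92), Il7r (0.88), the interleukin 7 receptor, Pabir2 (0.85) and P2ry10 (0.85). Gzmb was added after its values were seen: its nearest genes were Ube2l6 (0.86), Oas3 (0.84), Zbp1 (0.83), Psmb8 (0.82) and Usp18 (0.81), all genes known to be induced by interferon.

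Measured transcripts of the members were also compared between the progenitors. Each assembled Gzmb gene had a single measured transcript, so the transcript values of the granzymes largely repeat their gene values. Of 16 assembled transcripts of the 9 members 2 were called, against 5.53% of all 91969 transcripts. Both were the single measured transcripts of the Gzmb genes, which fell by 1.40 ± 0.18 (adjusted p 0.00291) and fell by 1.58 ± 0.29 (adjusted p 0.0165). The single Cd8a transcript had a difference of 0.93 ± 0.28 (adjusted p 0.0985).

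Ptprc is known for alternative splicing of exons near its 5′ end, which gives the CD45RA, RB and RO proteins. The assembled gene chosen for Ptprc had 5 measured transcripts, and the second gene of that name had 1 (0.81 ± 0.47, adjusted p 0.372 by limma). Among the 5 transcripts, 3 exons were in some and skipped in others. They lay at chr13:49655093-49655218 (126 bases), chr13:49652616-49652762 (147 bases) and chr13:49649818-49649940 (123 bases), in the order of transcription on the minus strand. The transcript without any of the 3 was at 7.70, 7.28, 7.103 and 7.58 in BN-Lx and at 7.98, 7.44, 7.35 and 7.96 in SHR. A transcript whose 1 long exon covers all 3 and the introns between them was at 8.36, 8.40, 7.92 and 8.23 in BN-Lx and at 7.69, 8.07, 7.44 and 8.22 in SHR. The ranges overlapped for both, and their differences were 0.27 ± 0.22 (adjusted p 0.537) and -0.37 ± 0.21 (adjusted p 0.358). The transcript with all 3 exons was at 1.898, 5.19, 1.94 and 3.31 in BN-Lx and at 1.97, 1.92, 2.03 and 5.67 in SHR. Most of these values lay between 1.898 and 2.03. No Ptprc transcript was called between the progenitors.

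**Figure D5:**
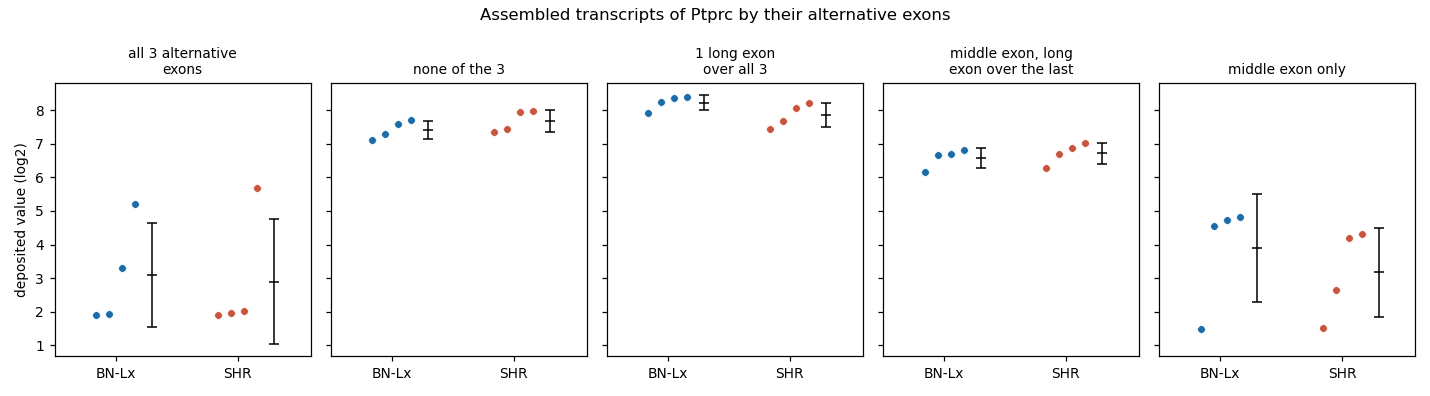
Deposited log2 values of 5 assembled Ptprc transcripts in 4 BN-Lx and 4 SHR animals, 1 point per animal with the mean and SD beside each group, each panel named by the alternative exons the transcript holds. The groups overlap in every panel. The transcript with all 3 exons runs from 1.898 to 5.67 over both strains, with most animals at 2.03 or below.

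Between the families 4 of 11 RefSeq transcripts of 9 members were called, against 19.0% of all 39592 transcripts. All 4 were lower in HXB: Nkg7 by 0.59 ± 0.13 (adjusted p 0.00494), Prf1 by 0.45 ± 0.13 (adjusted p 0.0163) and both Cd4 transcripts, by 0.33 ± 0.10 (adjusted p 0.0225) and 0.24 ± 0.08 (adjusted p 0.0429). The 2 Ptprc transcripts differed by 0.41 ± 0.16 for NM_001109890.2 (adjusted p 0.0768) and -0.01 ± 0.29 for NM_001109887.2 (adjusted p 0.984). No RefSeq transcript was matched to Cd3e.

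Genes of the wider T cell programme were counted in lists, to be read against the 20.5% of single-symbol genes called between SHR and BN-Lx and the 36.3% of RefSeq genes called between the families (18.5% higher and 17.8% lower in HXB). Of 20 measured genes of T cell receptor signalling, SHR had 2 higher and 1 lower, with a median difference of -0.05. Fyn, a kinase of the Src family, rose by 0.36 ± 0.08 (adjusted p 0.00922), the adaptor Grap2 rose by 0.79 ± 0.18 (0.0128) and the kinase Prkcq fell by 0.62 ± 0.16 (0.02). In HXB 2 of 22 were lower than in BXH and none higher (median -0.06), namely Lck by 0.31 ± 0.08 (adjusted p 0.00748) and Cd6, a T cell surface receptor, by 0.24 ± 0.08 (0.0228). Of 19 genes of T cell identity and homing, SHR had 3 higher and 1 lower (median 0.08). Il2rb, a chain of the interleukin 2 and 15 receptors, showed the smallest p among them, at 7.97 ± 0.14 in BN-Lx and 9.27 ± 0.12 in SHR (SD, n = 4 each), a rise by 1.31 ± 0.11 (adjusted p 4.91e-06 by limma). Thy1, also made by fibroblasts, fell by 0.79 ± 0.18 (0.0102), and S1pr1, a receptor that guides lymphocyte egress and is abundant on endothelium, rose by 0.32 ± 0.09 (0.0353). In HXB 5 of 22 were lower and none higher (median -0.04), among them Foxp3, the factor of regulatory T cells, by 0.42 ± 0.10 (0.00181), Il2rb by 0.57 ± 0.15 (0.00428) and Thy1 by 0.48 ± 0.15 (0.0125).

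Among 23 measured genes of cytotoxic effectors and natural killer cells other than the members, none was called between SHR and BN-Lx by limma, with 5 at an unadjusted p under 0.05 and a median of 0.12. Gzmc was counted there as not measured, since no measured assembled gene carried it as its single name, while the first assembled Gzmb gene, placed with Gzmc, was called. In HXB 6 of 30 were lower and 3 higher (median -0.06). Lamp1, a protein of lysosome membranes, fell by 0.17 ± 0.04 (adjusted p 0.00301), Tyrobp, a signalling adaptor of natural killer and myeloid cells, fell by 0.30 ± 0.09 (0.0119), and the receptor gene Cd226 rose by 0.43 ± 0.12 (0.00684). Of 15 T cell chemokines and adhesion molecules SHR had 2 higher and 2 lower (median -0.19). Ccl21, which draws T cells to lymphatic vessels, fell by 0.67 ± 0.09 (adjusted p 0.000281), Cxcl16 fell by 0.67 ± 0.09 (0.00049) and Cxcl12 rose by 0.47 ± 0.07 (0.00105). In HXB 3 of 15 were lower (median -0.08): Madcam1 by 0.21 ± 0.06 (0.00667), Ccl19 by 0.37 ± 0.10 (0.00799) and Icam1 by 0.25 ± 0.08 (0.0137).

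Markers of other cell types were counted in the same way, against the same 20.5% and 36.3% of genes called. In SHR 3 of 16 pan-leukocyte genes were higher and 1 lower: the integrin chains Itgal (0.69 ± 0.14, adjusted p 0.00585) and Itgb2 (0.49 ± 0.14, 0.0368) were among those that rose, while Arhgdib fell by 0.57 ± 0.09 (0.000873). The mean level of this list ran from 7.73 to 7.96 in the BN-Lx libraries and from 7.87 to 8.24 in the SHR libraries. Of 10 macrophage genes 5 were lower in SHR and 1 higher (median -0.33), with list means of 9.18 to 9.31 in BN-Lx and 8.83 to 9.18 in SHR. Cd163, a scavenger receptor, fell by 0.65 ± 0.10 (0.000866), C1qc by 0.51 ± 0.09 (0.00303) and Cd14 by 0.52 ± 0.12 (0.0134). Of 15 B cell genes (median -0.48, with 8 at an unadjusted p under 0.05) 1 rose, Fcer2 (1.80 ± 0.14, 4.52e-06), and 1 fell, Cd79b (by 0.92 ± 0.28, 0.0441). Of 9 neutrophil and mast cell genes 2 rose, the mast cell proteases Cpa3 (1.33 ± 0.19, 0.000543) and Tpsab1 (1.56 ± 0.25, 0.00118), and S100a8, a neutrophil gene, fell by 1.32 ± 0.40 (0.0442). Of 6 cardiomyocyte genes Tnni3 and Tnnt2 fell, by 0.47 ± 0.08 (0.0026) and 0.30 ± 0.08 (0.0247), and none of 5 erythroid genes was called by limma (1 at an unadjusted p under 0.05). List means in BN-Lx and SHR ran from 3.84 to 4.52 and 3.66 to 4.14 for B cells, from 4.59 to 6.01 and 5.05 to 5.45 for neutrophils and mast cells, and from 11.89 to 12.82 and 11.78 to 13.02 for erythroid genes. Those of the cardiomyocyte genes were at 18.16 to 18.27 and 18.05 to 18.18, so markers of heart muscle were present in every library. The part of these markers in the member differences was not tested.

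In the families, 6 of 12 macrophage genes were lower in HXB and none higher (median -0.21), with list means of 8.83 to 9.25 in HXB and 9.10 to 9.54 in BXH. C1qc fell by 0.46 ± 0.09 (adjusted p 0.000977), Cd68 by 0.46 ± 0.09 (0.00112) and C1qa by 0.37 ± 0.08 (0.00116). Of 18 pan-leukocyte genes 3 were lower and 1 higher in HXB: Rac2 and Coro1a were lower, each by 0.31 (SE 0.10 and 0.12, adjusted p 0.0182 and 0.0438), and Cd48 was higher by 0.28 ± 0.07 (0.00255). Of 9 cardiomyocyte genes 4 were lower and 1 higher, with Mb, Tnni3 and Actc1 lower by 0.31 ± 0.07, 0.28 ± 0.07 and 0.24 ± 0.08 (adjusted p 0.00291, 0.00568 and 0.0195). None of the B cell (15), neutrophil and mast cell (10) and erythroid (8) genes was called by limma, with 1, 0 and 2 at an unadjusted p under 0.05. List means in HXB and BXH ran from 7.86 to 8.34 and 7.99 to 8.43 for pan-leukocyte genes, from 4.42 to 4.95 and 4.42 to 4.90 for B cells, from 12.19 to 13.75 and 12.37 to 13.51 for erythroid genes, and from 17.67 to 17.96 and 17.72 to 18.10 for cardiomyocyte genes. Whether these markers had a part in the falls of Cd4, Prf1 and Nkg7 was not tested.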

How the data were processed

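Left ventricular RNA without ribosomal RNA was sequenced. The authors deposited log2 values and no counts, so depth and counting error are unknown. The submitters' processing notes name RSEM 1.3.1, StringTie 1.3.5, HISAT2 2.1.0, DESeq2 (no version), Bowtie2 2.3.4.3, cutadapt 1.9.1 and the build rn7, and the transformation is not given in the sources used here. Spike-in RNAs (70 in the assembled and 69 in the RefSeq tables) were left out of all tests.

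Groups came from the labels. The progenitors were compared in the 8 batch 1 libraries of the assembled tables, which hold BN-Lx, and HXB and BXH in 21 libraries of the RefSeq tables with batch as a covariate, all with limma 3.58.1 in R 4.3.3 (eBayes with intensity trend, two-sided, Benjamini-Hochberg over all features, threshold 0.05). Whether replicates share a litter is not stated, so p-values measure the spread between these animals. Later libraries of SHR replicate 4 served only as a repeat. No pair of libraries held identical values. Pairs of members were tested with 100000 permutations (numpy 2.4.6). Modes were fitted with mclust 6.1.1 (up to 3 components of equal variance). Python 3.11.15, pandas 2.3.3 and matplotlib 3.10.9 were used.

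The members and the 10 gene lists were chosen with earlier results of these data known. Named genes were the members, the 3 called genes of smallest p of every list in each comparison, the 5 genes most like Cd3e, Prf1, Cd4 and Ptprc across strains, and granzyme neighbours. Of these, 1 gene like Ptprc is not reported here. The motifs, the genes like Gzmb and the genes printed with their promoters were chosen after their values were seen. RefSeq promoter windows are of GRCr8.

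On simulated data, 12% of changes of 0.5 (log2), 30% of 1 and 68% of 2 were recovered for SHR against BN-Lx, with 16 false calls among 46063 genes, more than the threshold allows on average in that simulation. For the families the shares were 84%, 98% and 100%, with 9 false calls among 19100. Far fewer genes were changed in these simulations than were called in the data. The adjusted threshold was therefore not the same, and these shares are not the power of the real comparisons. Mixtures with means 4 SD apart were recognised in 73% of the simulated sets, and a single component was split in 10.6%. Alternative settings changed the annotation, the batch and spike-in terms, the pairing, single libraries, the scaling, the low-value filter and the moderation.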

Additional observations from a re-analysis of the deposited data

Results flagged for a closer look

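The RefSeq level of Cd3d in BXH8 was 3.55, and the nearest of the other 8 BXH strains was at 3.26, so that this gap took 0.497 of the range of the family, above Dixon's 95% critical value for 9 samples. It was the only value to stand apart in 44 groups of 4 to 9 libraries examined over the members and Gzmc, and chance marks about 1 in 20 groups. A limma interaction test of the family effect between batch 2 and batch 3 called none of the 10 members (adjusted p 0.754 to 0.989).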

How the results depend on the processing

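Without counts, depth cannot be used to judge the low values of the CD3 and CD8 genes. Direction and side of the threshold were kept in 224 of 256 checks of single members. Most of these checks were of genes not called in the main fit, for which keeping the side means staying uncalled. In 19 checks a call of the main fit was lost, for Cd8a and the second Gzmb gene in the progenitors and for Cd4, Prf1 and Nkg7 in the families. In SHR against BN-Lx, 6603 genes and 2 members were called. With the spike-in level as a covariate 1849 genes and 1 member were called, and in a fit of all groups 3916 genes and 1 member. Leaving out 1 replicate gave 4377 to 6114 genes (4377 without SHR replicate 4), 1 to 2 members and 1 to 2 of the 2 member transcripts. Ptprc, not called, ran from -0.14 to 0.038 and was above 0 without BN-Lx replicate 2 or SHR replicate 3. Replicate numbers did not pair the animals (correlations of deviations between -0.04 and 0.03 for equal numbers). With the replicate block 5437 genes and 2 members were called, and 1 member transcript instead of 2. In HXB against BXH, 6940 genes and 3 members were called. Batch 2 alone, the spike-in covariate and the first component (chosen after seeing the data) each gave 0 genes and 0 members, with 1, 1 and 2 members at an unadjusted p under 0.05. Genes above the median level gave 1 member, as fewer members were tested. The table of assembled genes gave 12871 of its 46063 genes, against 6940 of 19100 in the RefSeq table. It gave 3 members, Nkg7, Prf1 and Cd8a. Cd3d, not called, turned to 0.054, 0.0041 and 0.19 in these first 3 settings, and Ptprc to -0.23 with the first component. Of the correlated pairs 8 became 1 in batch 3 alone, 0 in batch 2 alone (0 at an unadjusted p under 0.05), 18 of 36 in the assembled table and 0 in each family alone. The Gzmb pairs of the assembled table used the first Gzmb gene, placed with Gzmc, so they do not repeat the RefSeq Gzmb pairs. Cd8a and Gzmb had a rho of 0.31 there. With the first component removed 8 pairs were called, 4 of them among the first 8, and 3 of the 4 gained pairs held Ptprc. Unequal variances gave more than 1 mode for 2 members, Cd3g and Gzmb, instead of Cd3g alone. The cause of these changes was not tested otherwise. In an older table of 17301 Ensembl genes, also added later and without Cd4, 6667 genes were called. Among them were 3 members: Nkg7 and Prf1 lower and Ptprc higher in HXB. Older tables were not run for the progenitors, since no BN-Lx column was used from them.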
